A study of Mus musculus with 3 samples.

Results

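The TRIM family is taken here as the 68 protein-coding mouse genes of GENCODE M21 whose symbol is Trim followed by a number, with or without a letter, among 21951 protein-coding genes. A site belonged to a member when it lay inside the gene on the same strand. By this rule 16 members carried 84 of the 19301 predicted m6A sites listed for RAW264.7 cells, and 52 members carried none. RAW264.7 is an established mouse macrophage line, here untreated and unmodified. The poly(A)+ RNA of 3 biological replicates, all of 1 condition, was used for miCLIP2. In miCLIP2 an antibody against N6-methyladenosine (m6A) is crosslinked to the RNA, and reverse transcription stops next to the crosslinked base. The classifier m6Aboost then gives each crosslinked A a prediction score, and the deposited list holds A positions with scores above 0.5, pooled over the replicates. The score grades how confident the call is, and it does not measure what share of the RNA is methylated. Read counts are not part of the list, so neither the depth of a site nor its replicate spread is known, and no test between samples could be made. Of 8 macrophage markers, Csf1r, Spi1, Lyz2 and Fcgr1 carried a site, while Adgre1, Cd68, Itgam and Mertk did not. None of 8 markers of other cell types did.

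TRIM proteins share an amino-terminal tripartite motif, usually a RING finger that transfers ubiquitin, followed by B-box zinc fingers and a coiled coil. Their carboxy-terminal parts differ and set the substrate, the most common being the PRY-SPRY domain, which binds other proteins. In macrophages several members are known for their roles in innate immune signalling. N6-methyladenosine is laid down on mRNA mainly by the METTL3 complex at the DRACH motif (A, G or T, then A or G, then AC, then A, C or T). It is best known near stop codons and in long exons, and reader proteins that bind it influence splicing, translation and decay of the mRNA.

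The sequences below show the highest-scoring site of each of the 7 members with 5 or more sites, because these transcripts hold most of the calls. Each is the 21 nt of GRCm38 centred on the site, written 5′ to 3′ as DNA on the strand of the gene, with the 5 bases around the called A in capitals.
Trim35, chr14:66310194-66310214, plus strand, 3′ UTR: tcagtcagTGACTgttggtct
Trim26, chr17:36859176-36859196, plus strand, 3′ UTR: tcttgaacAGACTgttcccag
Trim8, chr19:46502453-46502473, plus strand, coding sequence: aattggaaGAACTgctttgag
Trim56, chr5:137111146-137111166, minus strand, 3′ UTR: agggagtcGAACTcttccaga
Trim25, chr11:89016638-89016658, plus strand, coding sequence: ttcaaggtGGACTtcaccgaa
Trim3, chr7:105617943-105617963, minus strand, coding sequence: tgctctatGGACAgccggtgc
Trim27, chr13:21192242-21192262, plus strand, coding sequence: gtctgtgaAGACTcggtgtgc
Their scores ran from 0.968 in Trim35 to 0.704 in Trim27. In all 7 the called A was followed by C, and in 6 of them, all but Trim3, the pentamer ended in ACT. The sequence is an input of m6Aboost, so motifs at sites picked by score are not an independent result.

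Another 4 windows show all family sites that lay outside DRACH.
Trim59, chr3:69037111-69037131, minus strand, coding sequence: tagaaattGGACGtattaaga
Trim27, chr13:21192288-21192308, plus strand, coding sequence: cccagaatGGATTctgggcag
Trim3, chr7:105618253-105618273, minus strand, coding sequence: cttgaagtGGACGggttgcgg
Trim25, chr11:89018691-89018711, plus strand, 3′ UTR: gcagaaaaGGAGCcggacagt
The 2 GGACG sites, in Trim59 and Trim3, differed from DRACH only at the last base, and scored 0.837 and 0.550. The GGATT site of Trim27, at chr13:21192298, scored 0.694. In mouse embryonic stem cells the paper tested this A with SELECT, an antibody-free qPCR method, and reports methylation that depended on Mettl3. The paper gives no such test for RAW264.7. The GGAGC site of Trim25 had the lowest score of the family, 0.506, close to the limit of 0.5.

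A listed site was found in 16 of the 68 members, or 23.5% (95% Wilson interval 15.0 to 34.9%), beside 23.1% of all protein-coding genes. The background thus lay inside the interval of the family. Among genes named Rnf and a number, many of which also encode RING finger proteins, 34 of 85 carried a site, or 40.0% (30.2 to 50.6%). Usp genes, which encode ubiquitin-specific proteases, held a site in 25 of 56 cases, or 44.6% (32.4 to 57.6%), and Zfp genes in 82 of 394 cases, or 20.8% (17.1 to 25.1%). These intervals cover counting error only, and the genes are not replicates. The list gives no RNA levels, so a member without a listed site cannot be told apart from a member that was too little expressed to be called.

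The 16 members carried between 1 and 15 sites, the median being 3.5, beside 3 for all protein-coding genes that held any. Trim56 had 15 sites, Trim8 had 12, Trim26 had 11 and Trim25 had 9. These 4 genes together held 47 of the 84 sites, or 56.0%. Trim27, Trim3 and Trim35 followed with 5 sites each and Trim44 with 4. Trim11, Trim39, Trim41 and Trim59 had 3 each, Trim33 and Trim45 had 2, and Trim21 and Trim32 had 1. Hence 7 of 68 members, or 10.3% (5.08 to 19.8%), had 5 or more sites, where 6.98% of all protein-coding genes did, which lies inside that interval.

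**Figure D1:**
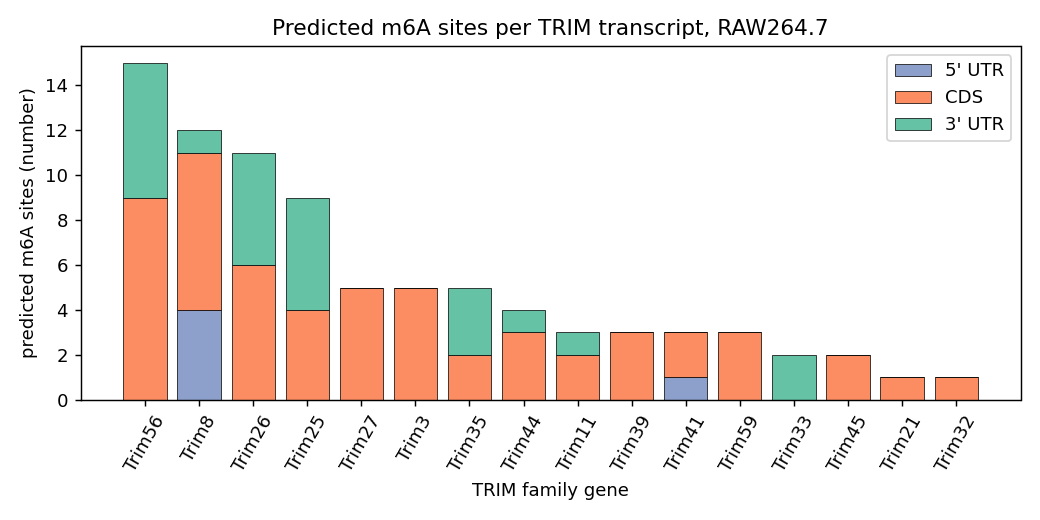
Number of predicted m6A sites (y axis) in each of the 16 TRIM genes with a site (x axis), with colours for the transcript region. Trim56 with 15 sites, Trim8 with 12, Trim26 with 11 and Trim25 with 9 stand at the left, and 5′ UTR sites appear in Trim8 and Trim41.

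The members were grouped by carboxy-terminal architecture, from general knowledge of the family. The chosen transcripts were not searched for the domains, so the group sizes are approximate. Of 38 PRY-SPRY members, 8 carried a total of 40 sites: Trim11, Trim21, Trim25, Trim26, Trim27, Trim35, Trim39 and Trim41. Of 8 members without a named carboxy-terminal domain, 3 carried 31 sites, namely Trim8, Trim44 and Trim56. In the NHL repeat group Trim3 had 5 sites and Trim32 had 1, while Trim2 and Trim71 had none. Of the 4 PHD-bromodomain members, which act on chromatin, Trim33 had 2 sites, and Trim24, Trim66 and Trim28, the corepressor of KRAB zinc finger proteins, had none. Trim45, the filamin-type member, had 2 sites. In the transmembrane group Trim59 had 3 and Trim13 had none. The groups are small, so the counts were not compared further.

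The other groups held no listed site. They were the microtubule-associated COS-FN3 members Trim9, Trim36, Trim42, Trim46 and Trim67, the muscle RING finger genes Trim54, Trim55 and Trim63, Trim37 with a MATH domain, and Trim23 with an ARF domain. Trim80 was not placed in a group and had none either. Among the members without a named carboxy-terminal domain, Trim29, Trim31, Trim40, Trim52 and Trim61 lacked one as well.

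The largest number of members without a site were PRY-SPRY genes, 30 in all. They included Trim5 and its neighbours on chromosome 7, namely Trim6, Trim12a, Trim12c, Trim30a, Trim30b, Trim30c, Trim30d, Trim34a and Trim34b, as well as Trim43a, Trim43b and Trim43c. Further ones were Trim7, Trim10, Trim14, Trim15, Trim16, Trim17, Trim38, Trim47, Trim50, Trim58, Trim60, Trim62, Trim65, Trim68, Trim69, Trim72 and Trim75. Part of these genes resemble each other closely. In Trim34b, 59.0% of all 50-nt windows of the transcript occurred in a transcript of another gene, and in Trim43b it was 48.8%. Some windows, as in Trim43b, also occurred in genes outside the family. Shared windows exceeded 10% of the transcript in 10 of the 52 members without a site and in 0 of the 16 with one. The former include Trim13 of the transmembrane group, and the highest share of the latter was 6.61%, in Trim59. The share was not computed for other protein-coding genes, so these counts have no background beside them. The authors kept uniquely mapping reads only, and the part of this in the missing calls was not tested.

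Of 4 genes that encode TRIM proteins under other names, Pml carried 5 sites, all in the coding sequence, with scores of 0.638 to 0.910. Mid1, Mid2 and Mefv carried none.

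To describe where the sites fell, each was placed on the coding transcript of its gene with the longest coding sequence (CDS). All 84 lay in exons, and shares by region are given beside those of the 18734 exonic sites of all protein-coding genes. The CDS held 55 sites, or 65.5% (54.8 to 74.8%), beside 53.02% (52.3 to 53.7%) for all genes. The 3′ UTR held 24 sites, or 28.6% (20.0 to 39.0%), beside 44.7% (44.0 to 45.4%). Neither pair of intervals overlapped, but for the CDS this depended on the transcript chosen. On the longest spliced transcript the family share was 64.3% (53.6 to 73.7%) and on the one with the longest genomic span 60.7% (50.02 to 70.5%), and both intervals reached that of all genes on the transcript with the longest CDS. Sites of 1 transcript are not independent, and the difference was not tested. Without Trim56, Trim8, Trim26 and Trim25 the CDS share was 78.4% (62.8 to 88.6%) and the 3′ UTR share 18.9% (9.48 to 34.2%). Of their exonic sites, Zfp genes had a CDS share of 75.9% (70.9 to 80.3%) and Rnf genes one of 75.0% (67.5 to 81.3%), and for Usp genes it was 64.9% (54.8 to 73.8%), so a high coding share was not seen in TRIM transcripts alone. The region was the same in every annotated coding transcript that held the site in an exon for 80 of the 84 sites. The exceptions were 1 site in Trim11 and 3 in Trim27, which lay in the CDS of some transcripts and in the 3′ UTR of another.

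**Figure D2:**
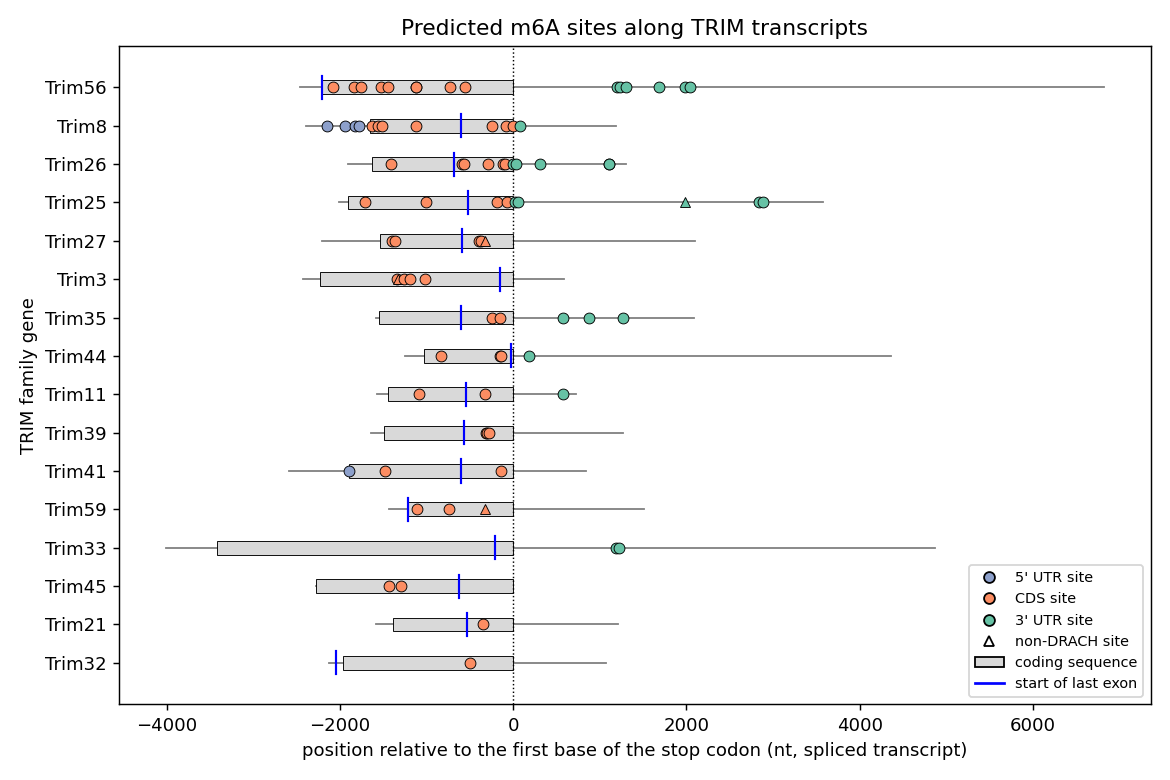
The 84 sites on the spliced transcripts of 16 TRIM genes, with the position in nt from the first base of the stop codon on the x axis, the CDS as a grey box and the start of the last exon as a blue line. Trim56, Trim32 and Trim59 have their whole CDS in the last exon, and the 5 sites of Trim3 sit together in an earlier exon.

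The last exon held 58 sites, or 69.0% (58.5 to 77.9%), and the value for exonic sites of all protein-coding genes was 68.9% (68.2 to 69.5%). Of the 84 family sites, 34 (40.5%, 30.6 to 51.2%) lay in the CDS of the last exon, beside 24.1% (23.5 to 24.8%) of all exonic sites. Trim56 gave 9 of the 34, and without it the share was 36.2% (25.9 to 48.02%). As above, sites of 1 transcript are not independent, and this difference was not tested. The last exon contributed a median of 38.1% of the CDS in the 16 members with a site and 35.5% in the 52 without, beside 11.3% in all protein-coding genes with a site. Thus long coding last exons were common to members with and without a site. In the 8 PRY-SPRY members with a site, between 27.7% and 41.7% of the CDS lay in the last exon. Each of these 8 had at least 1 coding site there, 18 in all, against 7 coding sites in their earlier exons.

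Exons with a site were long. The 16 transcripts had 119 exons, of which 25 held a site. These had a median length of 1511 nt, and the shortest was exon 3 of Trim25 with 234 nt. The 94 exons without a site had a median of 116 nt. In all protein-coding genes with a site the medians were 874 and 126 nt. A longer exon offers more A positions, so the lengths are given as a description.

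Trim56, an E3 ubiquitin ligase of antiviral signalling, lies at chr5:137105644-137116209 (minus strand). All 15 of its sites lay in exon 3, which is 9018 nt long and holds the whole CDS and 3′ UTR. The 9 coding sites scored between 0.557 and 0.873 and were spread from 2075 to 559 nt upstream of the stop codon. The 6 sites of the 3′ UTR, with scores of 0.659 to 0.892, began only 1196 nt downstream and ended 2043 nt downstream. The largest gap between neighbouring sites, 1755 nt, spanned the stop codon, and so no site of Trim56 lay within 200 nt of it. The transcript had 181 DRACH motifs, of which 15, or 8.29%, were listed.

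Trim8, a RING finger ligase that acts on NF-κB and cytokine signalling, lies at chr19:46501702-46516848 (plus strand). It had 8 of its 12 sites in exon 1, which is 1312 nt long, and the other 4 in the last exon. The 4 sites of the 5′ UTR had low scores, 0.534, 0.632, 0.569 and 0.615 from 5′ to 3′. In the coding part of exon 1 the 4 scores were 0.904, 0.696, 0.870 and 0.824, all above those of the 5′ UTR. Of the last exon, the sites 242, 86 and 6 nt upstream of the stop codon scored 0.701, 0.814 and 0.580, and the one 74 nt downstream 0.591. At 22.6%, or 12 of 53 DRACH motifs, Trim8 had the highest listed share of the family. Its 5′ UTR sites made up 4 of the 5 in the family, the other being in Trim41 with a score of 0.511. The 5′ UTR share was 5.95% (2.57 to 13.2%) with Trim8 and 1.39% (0.246 to 7.46%) without it, beside 2.27% (2.06 to 2.49%) of all exonic sites. The first exon likewise held 13 family sites, or 15.5% (9.27 to 24.7%), beside 4.69% for all, and 6.94% (3.00 to 15.2%) without Trim8.

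Trim26, a PRY-SPRY ligase linked to interferon signalling, lies at chr17:36837134-36859398 (plus strand). It had 1 site in exon 3, with a score of 0.628, and 10 in the last exon. The 5 coding sites of the last exon lay between 587 and 91 nt upstream of the stop codon, with scores of 0.723, 0.711, 0.880, 0.650 and 0.810. In the 3′ UTR, the sites 3, 35 and 306 nt downstream of the first base of the stop codon scored 0.810, 0.705 and 0.613. A further pair, 1102 and 1106 nt downstream, scored 0.633 and 0.924. These neighbours are only 4 nt apart, and with the pair counted once the family had 83 sites. Of 79 DRACH motifs in Trim26, 11 or 13.9% were listed, the second highest share among members.

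Trim25, the ligase known for modifying the RNA sensor RIG-I, lies at chr11:88999376-89020293 (plus strand). Single coding sites in exons 1 and 3 scored 0.7 and 0.762. A group of 4 sites surrounded the stop codon: 186 and 71 nt upstream the scores were 0.776 and 0.879, and 26 and 55 nt downstream they were 0.828 and 0.738. Far in the 3′ UTR, the sites 1982, 2838 and 2883 nt downstream scored 0.506, 0.649 and 0.602. All 4 sites around the stop codon thus scored higher than all 3 distal ones.

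Trim35, a PRY-SPRY member at chr14:66297031-66311424 (plus strand), carried its 5 sites in the last exon. The coding sites, 246 and 152 nt upstream of the stop codon, scored 0.529 and 0.7. Those of the 3′ UTR scored 0.812, 0.968 and 0.711 at 580, 870 and 1270 nt downstream. The value of 0.968, at the TGACT shown above, was the highest of the family, whose scores above 0.9 were otherwise the 0.924 of Trim26 and the 0.904 of Trim8.

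Trim27, also called RET finger protein and known as a transcriptional repressor, lies at chr13:21179445-21194724 (plus strand). Its 5 sites formed 2 groups. In exon 2, neighbouring sites 30 nt apart scored 0.686 and 0.567. In the last exon, sites 390, 371 and 325 nt upstream of the stop codon scored 0.670, 0.704 and 0.694, the last of them at GGATT. These 3 positions lay in the CDS of 3 annotated coding transcripts and in the 3′ UTR of 1. The 3′ UTR of the chosen transcript, 2099 nt long, held no site.

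Trim3, an NHL repeat member, lies at chr7:105604463-105633571 (minus strand). All 5 sites fell within 327 nt of exon 6, an internal exon of 733 nt. From 5′ to 3′ the scores were 0.555, 0.550, 0.532, 0.641 and 0.796, so 4 of the 5 were below the family median. No site lay in its last exon or in the 3′ UTR. In Trim59, a membrane-anchored member at chr3:69035288-69044755 (minus strand), 3 coding sites of the last exon scored 0.881, 0.803 and 0.837. They were 1115, 738 and 325 nt upstream of the stop codon, and the lowest of them exceeded the highest score of Trim3.

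The remaining members had 1 to 4 sites each. The 3 coding sites of Trim39 lay within 41 nt of the last exon and scored between 0.571 and 0.792. In Trim45 both sites were coding sites of exon 2, with scores of 0.735 and 0.778 as lowest and highest. Trim33, the SMAD pathway regulator also called TIF1γ, had both sites in the 3′ UTR, 28 nt apart, with scores from 0.768 to 0.873. Trim44, which lacks the RING finger, had 3 coding sites and 1 in the 3′ UTR, with scores of 0.577 to 0.823. In Trim41 there were 2 coding sites besides the one in the 5′ UTR, and its highest score was 0.838. Trim11 had 2 coding sites and 1 in the 3′ UTR, scoring 0.570 to 0.703. The single sites of Trim21, the cytosolic antibody receptor, and of Trim32, which is mutated in a limb-girdle muscular dystrophy, were coding sites of the last exon with scores of 0.722 and 0.581.

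Family scores lay between 0.506 and 0.968. Their median was 0.704 and their quartiles 0.614 and 0.805. Over all protein-coding genes the median was 0.734 and the quartiles 0.627 and 0.833, so the distributions largely overlapped. Scores of at least 0.9 were reached by 3 family sites, or 3.57% (1.22 to 9.98%), beside 8.88% (8.50 to 9.29%). The median was 0.704 for coding sites and 0.736 for 3′ UTR sites of the family, beside 0.699 and 0.786 for all genes. The transcript region and the sequence are among the inputs of m6Aboost, and their part in these medians was not tested.

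**Figure D3:**
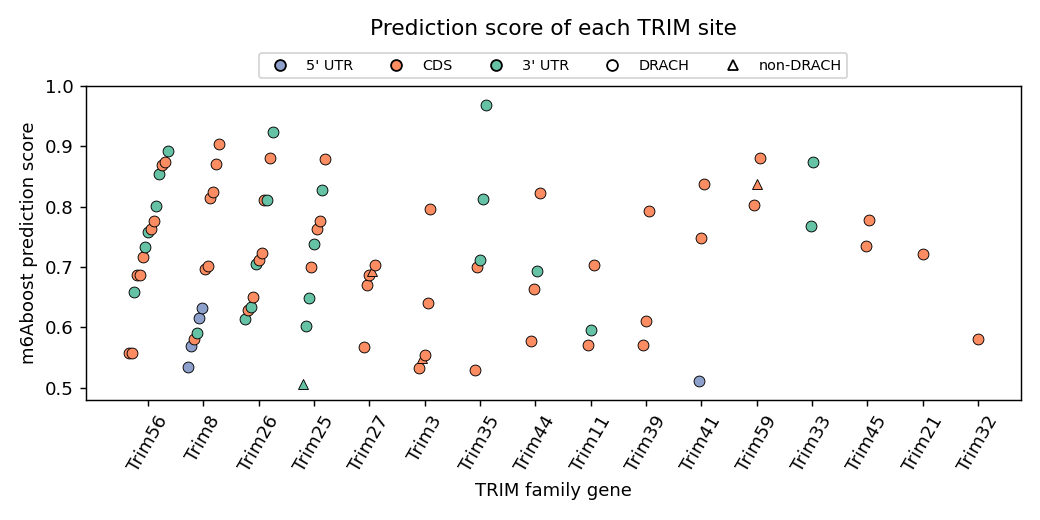
The m6Aboost prediction score (y axis, from the list's limit of 0.5) of every site of the 16 TRIM genes (x axis, in order of site number), with colours for the region and triangles for non-DRACH sites. The highest point is the 3′ UTR site of Trim35 at 0.968, and the 4 5′ UTR sites of Trim8 lie below its coding sites of exon 1.

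DRACH motifs held 80 of the 84 sites, or 95.2% (88.4 to 98.1%), beside 92.0% (91.6 to 92.4%) for all protein-coding genes. Of all A in the 16 transcripts, 7.62% lay in DRACH, and on all protein-coding transcripts it was 7.83%. GGACT held 15 sites in 9 members, and GGACA and TGACT held 13 each, in 9 and 7 members. AGACT had 10 sites and GAACT had 7. The order rested on Trim56, which gave 6 of the 15 GGACT sites: without it GGACT had 9 of 69 sites, or 13.04% (7.02 to 22.97%), and GGACA and TGACT had 11 each. TGACT made up 15.5% of the family sites (9.27 to 24.7%), beside 7.55% (7.19 to 7.92%) of all, and GAACT 8.33% (4.10 to 16.2%) beside 13.1% (12.7 to 13.6%).

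The sites were also set against the motifs available. On the 16 transcripts, 15 of 66 GGACT motifs were listed, or 22.7% (14.3 to 34.2%), and 13 of 68 TGACT, or 19.1% (11.5 to 30.0%). In all protein-coding genes with a site the shares were 17.1% (16.6 to 17.6%) and 6.46% (6.14 to 6.79%). For GAACT, 7 of 49 motifs were listed, or 14.3% (7.10 to 26.7%), beside 11.7% (11.2 to 12.1%). No site was listed at the 93 AAACA, 61 AAACC, 49 GAACC, 47 TAACA, 37 TAACC and 74 TGACC motifs of these transcripts. For AAACA, 0 of 93 leaves an upper Wilson limit of 3.97%, and in all genes 0.670% were listed.

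Within 200 nt of the first base of the stop codon lay 16 family sites, or 19.05% (12.1 to 28.7%), beside 32.4% (31.7 to 33.0%) of all exonic sites. Without Trim56, which had no site there, it was 16 of 69, or 23.2% (14.8 to 34.4%). That interval overlapped the one of all exonic sites, so the separation depended on Trim56. It remained without Trim8, at 18.1% (10.9 to 28.5%), and without the 4 members with most sites, at 13.5% (5.91 to 27.98%). In other gene families the share was 19.4% (15.4 to 24.1%) for Zfp genes, 22.3% (15.1 to 31.8%) for Usp genes and 25.7% (19.3 to 33.3%) for Rnf genes. The 16 sites came from 6 members: Trim25 and Trim26 had 4 each, Trim8 and Trim44 had 3 each, and Trim35 and Trim41 had 1 each. The family median lay 325 nt upstream of the stop codon, while that of all exonic sites lay 64 nt upstream. The difference was not tested. Against the motifs available there the intervals overlapped: 16 of 119 DRACH motifs within 200 nt were listed on the 16 transcripts, or 13.4% (8.45 to 20.7%), beside 12.8% (12.5 to 13.1%). Without the 4 members with most sites it was 5 of 88, or 5.68% (2.45 to 12.6%). Such an omission by number of sites tends to lower the share by construction, and the background was not trimmed likewise.

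**Figure D4:**
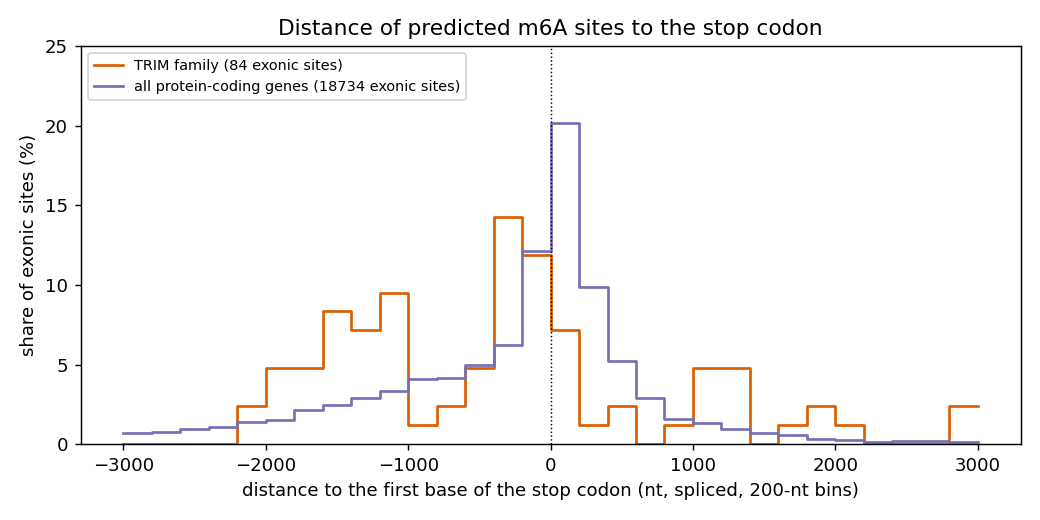
Share of exonic sites (y axis, %) in 200-nt bins of the distance to the first base of the stop codon (x axis, nt on the spliced transcript, negative upstream), for 84 TRIM sites and 18734 sites of all protein-coding genes, of which 1215 lie beyond the plotted 3000 nt. The background is highest in the bin directly downstream of the stop codon, with 20.2% beside 7.14% of TRIM sites, and in the bin directly upstream the values are 12.1% and 11.9%.

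Over the whole of the 16 transcripts 80 of 1278 DRACH motifs were listed, or 6.26% (5.06 to 7.72%), beside 4.64% (4.57 to 4.71%) in all protein-coding genes with a site. Without the 4 members with most sites the family value was 3.96% (2.85 to 5.49%). Leaving out members by their number of sites tends to lower such a share by construction. The background was not trimmed in this way, so the trimmed values here are not comparable with it. In the last exon the shares were 6.23% (4.82 to 8.02%) and 6.37% (6.26 to 6.48%), and in earlier exons 6.33% (4.32 to 9.18%) and 2.91% (2.83 to 2.99%). Of the 25 listed motifs in earlier exons, 8 lay in exon 1 of Trim8 and 4 in exon 6 of Trim3. This class was not recomputed without these members. In the CDS farther than 200 nt from the stop codon, 42 of 477 motifs were listed, or 8.81% (6.58 to 11.7%), beside 3.92% (3.83 to 4.01%) in all protein-coding genes with a site. The share was 7.42% (5.33 to 10.2%) without Trim56 and 6.11% (4.07 to 9.08%) without the 4 members with most sites. Motifs of 1 transcript are not independent, and none of these differences was tested. In the CDS of the last exon it was 32 of 208, or 15.4% (11.1 to 20.9%), beside 12.8% (12.4 to 13.1%). In the 3′ UTR farther than 200 nt it was 17 of 615, or 2.76% (1.73 to 4.38%), beside 3.21% (3.12 to 3.31%). The intervals overlapped with the background in both of these classes. Without the 4 members with most sites the shares fell to 9.09% (5.39 to 14.9%) and 1.64% (0.756 to 3.54%).

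**Figure D5:**
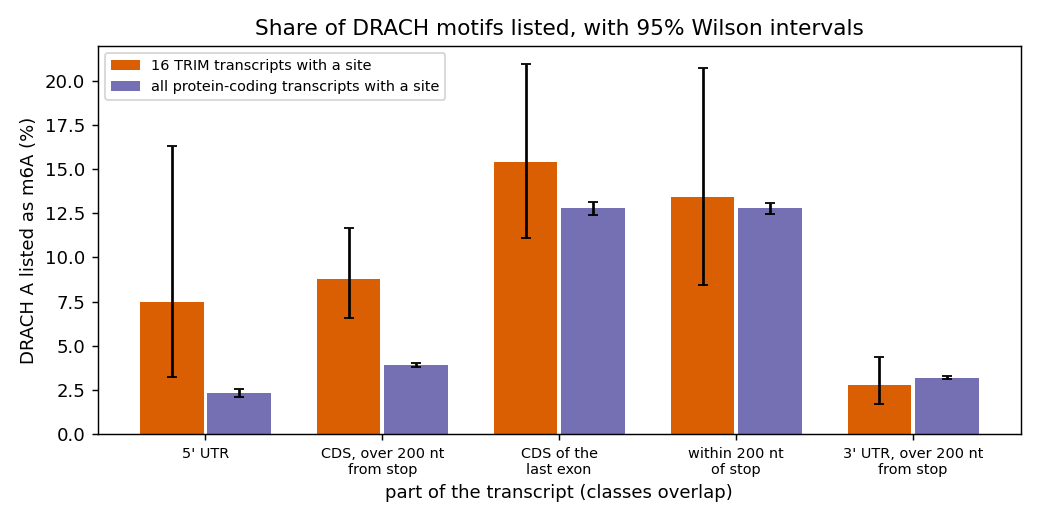
Share of DRACH motifs listed as m6A sites (y axis, %) by part of the transcript (x axis, classes overlap), for the 16 TRIM transcripts with a site and all protein-coding transcripts with a site. Error bars are 95% Wilson intervals for counting error, and among the 5 classes plotted those whose intervals do not overlap are the 5′ UTR, where 4 of 5 TRIM sites are from Trim8, and the CDS over 200 nt from the stop codon, with 8.81% beside 3.92%.

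Another family site lay within 100 nt on the same spliced transcript for 50 of 84 sites, or 59.5% (48.8 to 69.4%), and the value for all protein-coding genes was 59.98% (59.3 to 60.7%). In the reading frame, 19 coding sites of the family were at the first codon position, 27 at the second and 9 at the third. In all protein-coding genes the numbers were 2428, 4866 and 2638. No family site lay in more than 1 protein-coding gene on its strand, and none was intronic.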

How the data were processed

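Per the labels and the methods of the study, the authors mapped reads of the 3 replicates with STAR 2.7.3a to GRCm38, kept uniquely mapping reads, removed duplicates with UMI-tools 1.0.0 and called PureCLIP peaks replicate by replicate. A peak had to occur in 2 or more replicates, and peaks at A were scored by m6Aboost. Tool versions are those of the submitters' processing notes. The deposited list gives the prediction score of each site, pooled over replicates; it holds no counts, so depth and replicate spread are unknown. All 19301 sites lay at A with the start read as 0-based.

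Sites were assigned to protein-coding genes of GENCODE M21 (the authors used M23) and placed on the transcript with the longest CDS, ties going to the longer transcript. A site inside several such genes counted for each, giving 20035 site and gene pairs for the background. The stop codon was counted with the CDS. Wilson intervals are at 95%. Placement was tested on simulated positions. Shared windows were 50 nt, searched in the GENCODE transcripts. Domain groups came from general knowledge of the family. The members and lists were chosen with earlier results of these data known. Scores were given site by site for members with 5 or more sites, a score of at least 0.9 or a non-DRACH site. Trim27, which the study names, also has 5 sites. Trim56, with 15 sites, and the other members are given by their number of sites, region and score range. Alternatives changed the score minimum, the collapsing of neighbours, overlapping genes, the names allowed, the transcript, the window, the motif and the members included. Python 3.11.15, SciPy 1.17.1 and matplotlib 3.10.9 were used.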

Additional observations from a re-analysis of the deposited data

How the results depend on the processing

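No paired analysis was possible because there is 1 condition and its replicates were merged into a single list, so that no replicate could be left out either. A minimum score of 0.7 left 46 sites in 15 members, with a median of 2 sites, 4 members with 5 or more, a median score of 0.799 and 78.3% of sites in the last exon. A minimum of 0.9 left 3 sites in 3 members, a median of 1 site, 0 members with 5 or more and a median score of 0.924. Of these 3, 100% were at DRACH, 0% at GGACT, 33.3% in the CDS, 66.7% in the 3′ UTR and 0% within 200 nt of the stop codon. Both by construction keep fewer sites. The motif RRACH held 76.2% of sites, and with the start read as 1-based 0% were at DRACH. The share near the stop codon was 10.7% within 100 nt and 34.5% within 400 nt. Leaving out the 4 members with most sites, chosen after seeing the data, gave 37 sites, 3 members with 5 or more, a CDS share of 78.4% and a 3′ UTR share of 18.9%; the cause was not tested. With the longest genomic span and the longest spliced transcript the CDS share was 60.7% and 64.3%. For counts, the median score and the motif, CDS, 3′ UTR, last exon and stop codon shares of sites, these and the other alternatives stayed within bounds. The bounds were the counting interval, or 1.5 times for counts. Without Trim8 the 5′ UTR share, 1.39%, and the first exon share, 6.94%, fell below the intervals with it (2.57 to 13.2% and 9.27 to 24.7%). The listed DRACH shares given above without the 4 members with most sites also fell below theirs. Counts of single members moved more: at a minimum of 0.7, Trim8 fell from 12 to 5 sites, Trim26 from 11 to 7, Trim35 from 5 to 3, Trim44 from 4 to 1, Trim27 and Trim3 from 5 to 1, Trim11 and Trim39 from 3 to 1, and Trim32 from 1 to 0. Trim56 kept 10 and Trim25 6, so that Trim26 and Trim25 then had more sites than Trim8. At 0.9 the 3 sites were those of Trim35, Trim26 and Trim8.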
